A study of Mus musculus with 24 samples.

Results

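The tissue inhibitors of metalloproteinases (TIMPs) and the matrix-degrading metalloproteinases are described here in the left ventricle of Hira CKO and control mice. Of the 17742 genes that a named probe represented, 10 were taken by symbol, namely the 4 TIMP genes (Timp1, Timp2, Timp3 and Timp4) and 6 metalloproteinase genes (Mmp2, Mmp3, Mmp9, Mmp14, Mmp15 and Adamts1), and all 10 had a probe, 1 each. Expression was measured on 24 single-colour MouseOne Array Plus arrays, with 3 arrays for each of 4 Hira CKO and 4 control mice, 6 weeks of age, on a mixed C57BL6/J and 129S1/SvImJ background. Hira CKO mice were aMHC-cre Tg/+; Hira flox/−, and control mice were aMHC-cre Tg/+; Hira flox/+. Every mouse of both groups therefore carried the cre transgene and a floxed Hira allele, and the study's methods add a Rosa26 YFP reporter allele in both. The aMHC promoter drives cre in cardiomyocytes, so that other cells of the ventricle keep the floxed allele of Hira and, in Hira CKO mice, have the deleted allele beside it. RNA came from free wall that was not scarred. Mice are named as in the labels, CKO_6300, CKO_6499, CKO_6672 and CKO_6707 and control_6706, control_6299, control_6675 and control_6497, and the labels do not state their sex.

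TIMPs are small secreted proteins that block the catalytic site of matrix metalloproteinases. Most metalloproteinases are made as inactive precursors, and the balance of active enzyme and TIMP sets how fast collagen and proteoglycans of the cardiac matrix are turned over. In the heart this system is best known from remodelling after injury and under pressure load, where fibroblasts, inflammatory cells and cardiomyocytes all make some of its proteins. HIRA is a chaperone that deposits a variant of histone H3 at transcribed genes outside replication. AP-1, a dimer of FOS and JUN proteins, is a known activator of several metalloproteinase promoters and of Timp1.

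Promoter windows are shown for the 3 genes that rose, because an AP-1 element has been described in the promoters of Mmp3 and Timp1. RefSeq windows of GRCm38.p6, with 250 bases before and 50 after the annotated start, were found for 8 of the 10 genes, and Mmp2 and Mmp9 had none. Capitals mark the AP-1 element TGAGTCA, its variant TGAGTAA and the TATA box TATAAA, each searched on both strands, and the marked elements do not overlap.
Timp1, chrX:20869916-20870215, plus strand: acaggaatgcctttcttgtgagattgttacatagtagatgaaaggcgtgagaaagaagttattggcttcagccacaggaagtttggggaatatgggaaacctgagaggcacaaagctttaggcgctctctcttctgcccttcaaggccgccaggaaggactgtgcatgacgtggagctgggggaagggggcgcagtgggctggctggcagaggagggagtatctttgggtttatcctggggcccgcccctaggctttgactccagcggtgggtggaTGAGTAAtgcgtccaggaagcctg
Mmp3, chr9:7445572-7445871, plus strand: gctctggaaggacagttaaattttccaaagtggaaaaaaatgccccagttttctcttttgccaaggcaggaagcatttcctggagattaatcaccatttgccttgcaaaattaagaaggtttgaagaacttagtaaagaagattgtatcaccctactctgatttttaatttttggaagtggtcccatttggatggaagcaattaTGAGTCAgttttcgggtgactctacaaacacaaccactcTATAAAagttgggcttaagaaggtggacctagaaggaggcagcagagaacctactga
Adamts1, chr16:85803064-85803363, minus strand: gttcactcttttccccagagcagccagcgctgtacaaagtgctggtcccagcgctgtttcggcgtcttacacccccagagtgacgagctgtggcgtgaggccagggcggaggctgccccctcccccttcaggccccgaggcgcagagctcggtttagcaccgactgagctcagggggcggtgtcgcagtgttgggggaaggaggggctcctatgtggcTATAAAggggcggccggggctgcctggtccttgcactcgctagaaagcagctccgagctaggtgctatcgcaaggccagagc
The Mmp3 window held the AP-1 element from −46 to −40 and the TATA box from −7 to −2, counted from the annotated start. The Timp1 window held the variant from 27 to 33 and no TATA box. The Adamts1 window held no AP-1 element of either form and a TATA box from −32 to −27. The AP-1 element was present in 5.2% of all 32851 windows of this length, the variant in 2.68% and either of them in 7.65%, against 2 of the 8 windows of these genes. Those 2, Mmp3 and Timp1, are the genes whose described elements prompted the search, so the count cannot measure an enrichment. The TATA box was present in 13.6% of all windows and in 2 of the 8. A GC box, GGGCGG on either strand, was present in 35.7% of all windows and in 6 of the 8, all but Timp4 and Mmp3. The windows of Timp2, Timp3, Timp4, Mmp14 and Mmp15 held neither form of the AP-1 element. A match of these letters says nothing about binding in these hearts.

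**Figure D1:**
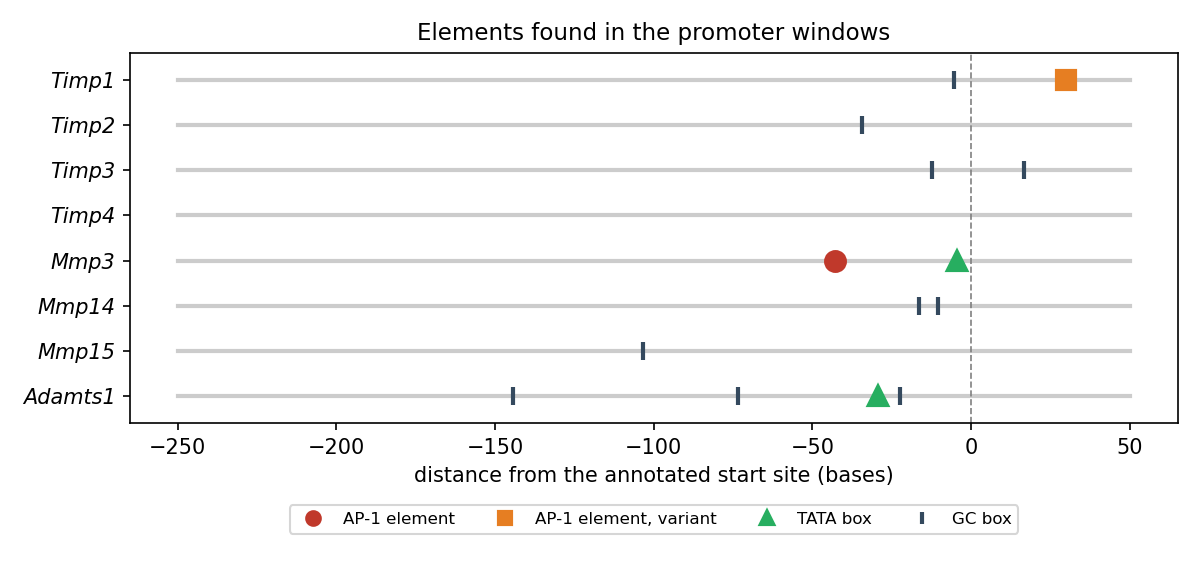
Elements found in the promoter windows of 8 genes, by distance in bases from the annotated start site (dashed line). Each grey line is a window and each symbol an occurrence of an AP-1 element, its variant, a TATA box or a GC box on either strand. Only Mmp3 and Timp1 carry an AP-1 symbol, and Timp4 carries none of the 4 elements.

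The values are linear intensities scaled to a median of 513.2 on each array, so a rise or fall of all transcripts alike would not be seen. The 3 arrays of a mouse were averaged on the log2 scale, and the 2 groups of mice were compared in limma with Benjamini-Hochberg adjustment over all 17742 genes. An adjusted p under 0.05 was the threshold for a call. The p-values set the difference between the groups against the spread between these mice, which limma draws in part from all genes. That spread includes the spread between arrays, and 4 mice a group limit the precision. In bulk tissue, fewer cells of a type and less RNA per cell cannot be told apart. Over all genes 14.6% were called, with 4.94% higher and 9.65% lower, and the median log2 fold change was −0.14, or −0.02 after quantile normalization. The 5th percentile of intensity was 23.8 ± 10.1 in Hira CKO and 43.0 ± 8.61 in control (SD, n = 4 each, 2-sided exact permutation test, p = 0.0571, where 0.0286 is the smallest p that 4 against 4 mice allow), and the difference was not past 0.05. Array 3 of CKO_6672 had 2429 probes below 0 and array 1 of control_6299 had 982, against at most 202 on any other array. The probe for Hira did not check the genotype: its intensity was 201.5 ± 25.6 in Hira CKO and 231.3 ± 26.6 in control mice (log2 fold change −0.20, SE 0.13, adjusted p = 0.282), and no source used here says whether it lies in the deleted part. The 5 measured cardiomyocyte markers of a list of 8 had a summed intensity of 1350829 to 1508117 in Hira CKO and 1255599 to 1353548 in control mice, and none was called.

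Of the 10 genes, Timp1, Mmp3 and Adamts1 were higher in Hira CKO hearts, 3.29-fold, 2.66-fold and 1.80-fold, Timp2 was called lower from a dim probe, and the other 6 were not called. The 3 that rose were the only ones whose 4 Hira CKO mice all stood above the 4 control mice, where 23.4% of all genes had groups that did not overlap in either direction. The median log2 fold change of the 10 was 0.13, and 8 of the 10 had a higher mean intensity in Hira CKO. After quantile normalization, which called 7.05% of all genes higher and 5.48% lower, the 10 again had 3 calls higher and 1 lower, with a median of 0.20.

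**Figure D2:**
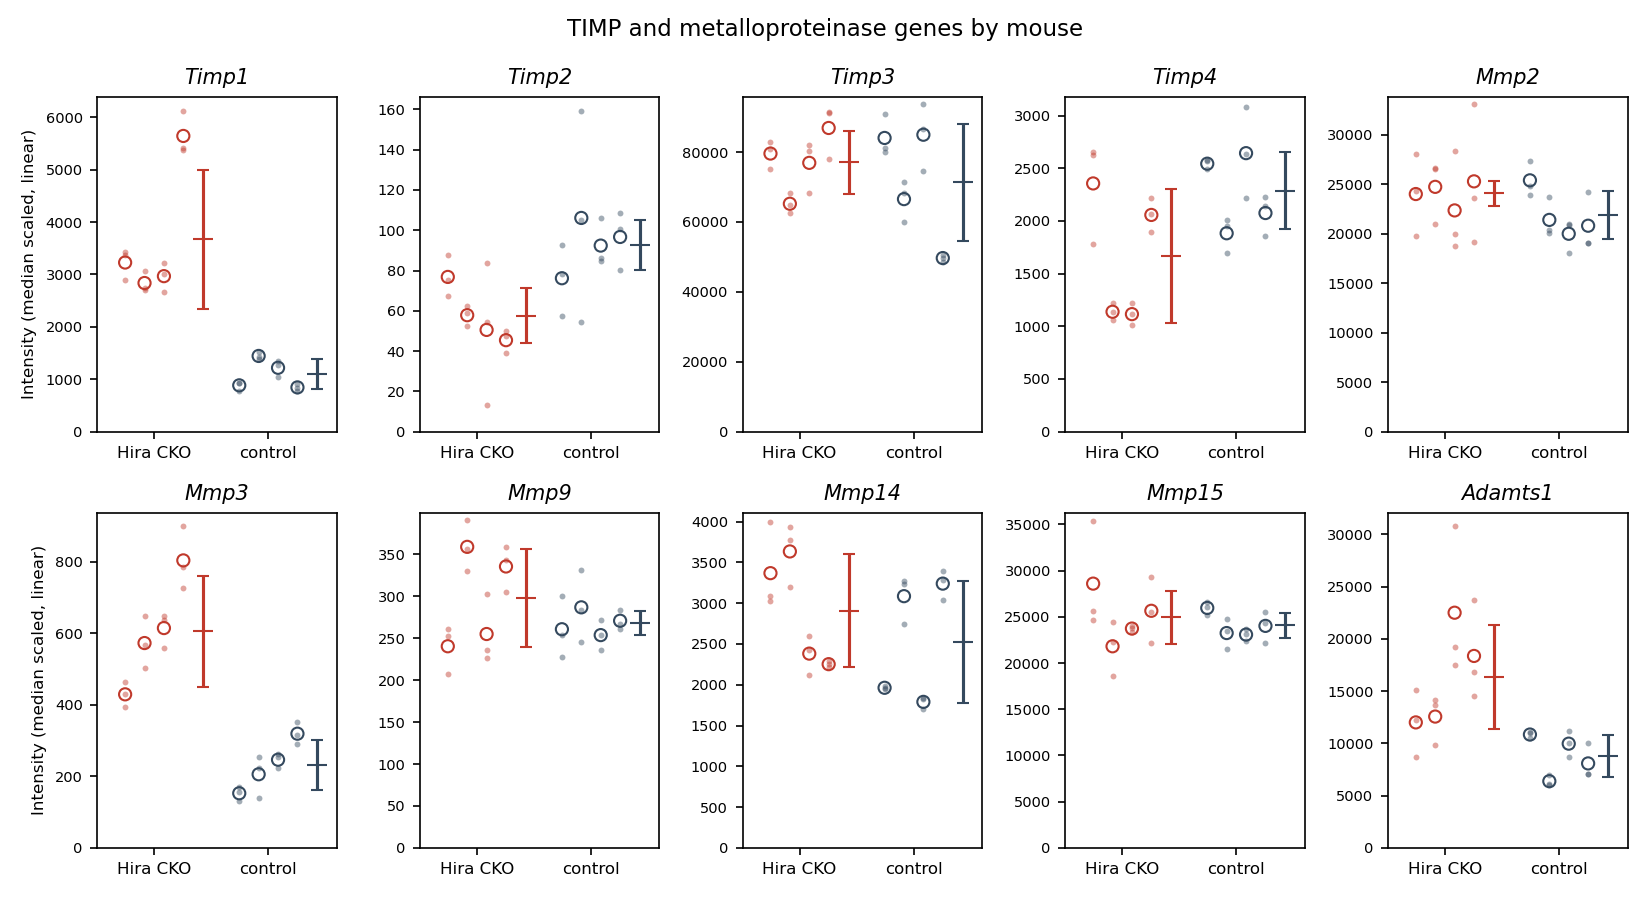
Intensity (linear, median scaled, from 0) of each gene in Hira CKO and control mice. Small points are arrays, open circles are the means of the 3 arrays of a mouse, and the bar beside each group is the mean of 4 mice ± SD. Timp1, Mmp3 and Adamts1 show every Hira CKO mouse above every control mouse, and the other genes overlap.

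Timp1 encodes the inducible TIMP, which inhibits most secreted metalloproteinases and is a poor inhibitor of the membrane-bound ones. Its intensity was 3228.5 in CKO_6300, 2837 in CKO_6499, 2968 in CKO_6672 and 5644.5 in CKO_6707, against 884.2 in control_6706, 1445 in control_6299, 1219 in control_6675 and 845 in control_6497. CKO_6707 stood well above the other Hira CKO mice, which lay close together, and the highest control mouse was still far below the lowest Hira CKO mouse. The mean was 3670 ± 1327 in Hira CKO and 1098.5 ± 286 in control (SD, n = 4 each), and the log2 fold change was 1.72 with SE 0.25 and 95% interval 1.14 to 2.30 (limma, adjusted p = 0.00509). All 12 Hira CKO arrays, from 2670 to 6130, lay above all 12 control arrays, from 780.2 to 1522. By size Timp1 was in place 68 among the rises of all genes. Without CKO_6707 the log2 fold change was 1.49 (adjusted p = 0.00655), and the call held in each of 23 other settings, in which the log2 fold change ran between 1.49 and 1.86.

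Timp2 encodes an inhibitor that also takes part in the activation of the Mmp2 precursor by Mmp14 at the cell surface. Its intensity was 76.8 in CKO_6300, 57.8 in CKO_6499, 50.5 in CKO_6672 and 45.4 in CKO_6707, against 76.2 in control_6706, 106.1 in control_6299, 92.4 in control_6675 and 96.7 in control_6497. CKO_6300 was level with the lowest control mouse, and the other 3 Hira CKO mice lay below every control mouse. The mean was 57.6 ± 13.8 in Hira CKO and 92.8 ± 12.5 in control (SD, n = 4 each), and the log2 fold change was −0.76 with SE 0.20 and 95% interval −1.21 to −0.30 (adjusted p = 0.0403). The probe was dim, between the 16.1 and 22.9 percentile of all probes by mouse, and the arrays of a mouse spread more (SD 0.60 in log2) than the mice of a group (SD 0.32). The 5th percentile of intensity moved with it: it was 38.7 in CKO_6300, 21.0 in CKO_6499, 18.1 in CKO_6672 and 17.4 in CKO_6707, against 34.7 in control_6706, 54.8 in control_6299, 39.2 in control_6675 and 43.1 in control_6497. CKO_6300 was the highest Hira CKO mouse in both, and control_6706 the lowest and control_6299 the highest control mouse in both. All 1854 genes with a mean intensity between 50 and 100, a range chosen after the values were seen, had a median log2 fold change of −0.44, and 21.5% of them were called lower. The part of this background in the fall of Timp2 was not tested. After quantile normalization the log2 fold change was −0.35 (adjusted p = 0.0433), and the call was lost in 15 of the 22 other settings that gave a value.

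Timp3 encodes the inhibitor that stays bound to the matrix and that also blocks ADAM and ADAMTS enzymes. Its intensity was 79582 in CKO_6300, 65217 in CKO_6499, 76917.5 in CKO_6672 and 86896 in CKO_6707, against 84043.5 in control_6706, 66543 in control_6299, 84965 in control_6675 and 49676 in control_6497. Both groups held low and high mice, and control_6497 was the lowest of the 8. The means were 77153 ± 9006.5 in Hira CKO and 71307 ± 16727 in control (SD, n = 4 each), and the log2 fold change of 0.14 (95% interval −0.27 to 0.55, adjusted p = 0.60) turned to −0.02 without control_6497.

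Timp4 encodes the TIMP best known from the heart. Its intensity was 2355.5 in CKO_6300, 1138 in CKO_6499, 1115 in CKO_6672 and 2057 in CKO_6707, against 2543 in control_6706, 1883 in control_6299, 2643 in control_6675 and 2075 in control_6497. The Hira CKO mice fell into a low pair, CKO_6499 and CKO_6672, below every control mouse on each of their 6 arrays, and a pair that lay among the controls. The means were 1666 ± 635 in Hira CKO and 2286 ± 365.5 in control (SD, n = 4 each), with a log2 fold change of −0.53 (SE 0.26, 95% interval −1.11 to 0.06, adjusted p = 0.172), which was not called. With all 24 arrays fitted and the mouse as a random block the adjusted p was 0.0355. That fit takes 1 correlation between the arrays of a mouse, 0.305, for all genes. For Timp4 the arrays of a mouse spread less (SD 0.17 in log2) than the mice of a group (SD 0.43). The SE of that fit, 0.178 against 0.259, is therefore likely too small for this gene.

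Mmp3 encodes stromelysin, a secreted enzyme that cleaves proteoglycans and can activate the precursors of other metalloproteinases. Its intensity was 429.4 in CKO_6300, 572.8 in CKO_6499, 614.7 in CKO_6672 and 803.9 in CKO_6707, against 152.8 in control_6706, 205.9 in control_6299, 246.6 in control_6675 and 319.4 in control_6497. Both groups were spread, and the lowest Hira CKO mouse lay above the highest control mouse. The mean was 605.2 ± 154 in Hira CKO and 231.2 ± 70.3 in control (SD, n = 4 each), and the log2 fold change was 1.41 with SE 0.25 and 95% interval 0.84 to 1.98 (limma, adjusted p = 0.0107). All 12 Hira CKO arrays, from 393.5 to 898.8, lay above all 12 control arrays, from 132.4 to 351.2. The call held in each of 23 other settings, with log2 fold changes between 1.23 and 1.59. CKO_6707 was the highest Hira CKO mouse for both Timp1 and Mmp3, while control_6497 was the highest control for Mmp3 and the lowest for Timp1.

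Mmp3 lies on chromosome 9 in a row of metalloproteinase genes. By the RefSeq table of GRCm38.p6, 9 other Mmp genes start within 1 Mb of it, and 7 of them had a named probe. None of the 7 was called, and their log2 fold changes ran between −1.23 for Mmp7 and 0.17 for Mmp8. Mmp13, a collagenase, had an intensity of 876.6 ± 96.5 in Hira CKO and 904.1 ± 149 in control mice (SD, n = 4 each, log2 fold change −0.03, adjusted p = 0.903). Mmp12, the macrophage elastase, had 138.9 ± 5.34 in Hira CKO and 156.9 ± 61.8 in control mice (log2 fold change −0.10, adjusted p = 0.83). Mmp7, Mmp8, Mmp10, Mmp20 and Mmp27 had group means under 100.

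Mmp2 and Mmp9 encode the gelatinases. Mmp2 had an intensity of 24010 in CKO_6300, 24735 in CKO_6499, 22355 in CKO_6672 and 25291 in CKO_6707, against 25394 in control_6706, 21396.5 in control_6299, 19996 in control_6675 and 20809 in control_6497. Apart from control_6706, the highest of all, the Hira CKO mice lay above the controls. The log2 fold change was 0.13 (95% interval −0.10 to 0.35, adjusted p = 0.383), so a rise of more than 1.28-fold lay outside the interval. Mmp9 had 240.4 in CKO_6300, 358.9 in CKO_6499, 255.0 in CKO_6672 and 335.5 in CKO_6707, against 260.7 in control_6706, 286.8 in control_6299, 253.7 in control_6675 and 270.8 in control_6497. CKO_6499 and CKO_6707 lay above every control mouse and CKO_6300 below every one. The log2 fold change of Mmp9 was 0.13 (95% interval −0.19 to 0.45, adjusted p = 0.533).

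Mmp14 and Mmp15 encode enzymes anchored in the cell membrane. Mmp14, the activator of the Mmp2 precursor, had an intensity of 3368 in CKO_6300, 3634 in CKO_6499, 2382 in CKO_6672 and 2252 in CKO_6707, against 1963 in control_6706, 3086 in control_6299, 1790 in control_6675 and 3240 in control_6497. Each group held a high and a low pair of mice. The high mice, CKO_6300, CKO_6499, control_6299 and control_6497, had neighbouring numbers across the groups. With neighbouring mouse numbers as a block the SE was 0.088, against 0.241 without it (limma, adjusted p = 0.125). The labels do not say what mice of neighbouring numbers share. The log2 fold change was 0.22 (95% interval −0.32 to 0.77, adjusted p = 0.529). Mmp15 had 28589 in CKO_6300, 21811 in CKO_6499, 23727.5 in CKO_6672 and 25651 in CKO_6707, against 25960.0 in control_6706, 23243 in control_6299, 23077 in control_6675 and 24018 in control_6497. The 4 control mice lay within the range of the Hira CKO mice. Its log2 fold change of 0.04 (95% interval −0.20 to 0.27, adjusted p = 0.815) turned to −0.03 without CKO_6300.

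Adamts1 encodes a secreted enzyme that cleaves versican and other proteoglycans. Its intensity was 12007 in CKO_6300, 12564.5 in CKO_6499, 22500.0 in CKO_6672 and 18364 in CKO_6707, against 10847 in control_6706, 6382 in control_6299, 9974 in control_6675 and 8083 in control_6497. CKO_6672 and CKO_6707 were high, and the lower pair of Hira CKO mice stood nearest to the highest control mouse, above it. The mean was 16359 ± 5002 in Hira CKO and 8821.5 ± 1994 in control (SD, n = 4 each), and the log2 fold change was 0.85 with SE 0.24 and 95% interval 0.31 to 1.39 (limma, adjusted p = 0.0469). Of the 12 Hira CKO arrays 10 lay above every control array. The direction held in each of 23 other settings and the call in 11 of them. With 1 mouse left out the adjusted p stayed under the threshold only without CKO_6300 (0.0218), and reached 0.103 without control_6299. Adamts5, the next gene on chromosome 16 and also a proteoglycan-cleaving enzyme, had an intensity of 710.5 ± 118 in Hira CKO and 821.4 ± 137 in control mice (log2 fold change −0.21, adjusted p = 0.350).

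**Figure D3:**
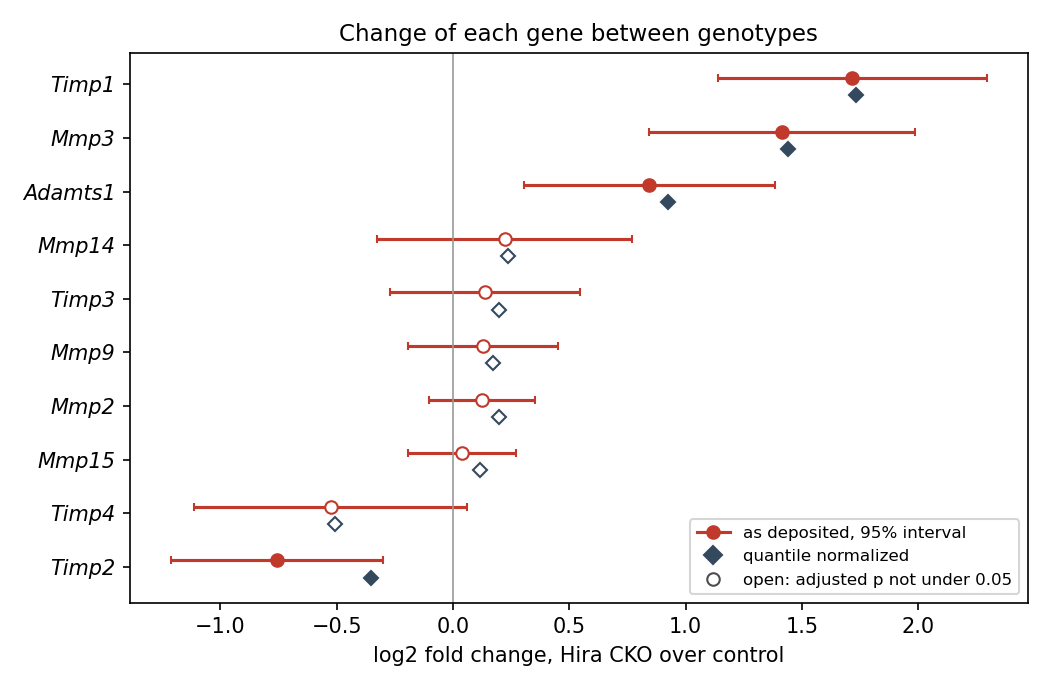
Log2 fold change of each gene, Hira CKO over control, with its 95% interval for the deposited values (circles) and after quantile normalization (diamonds). Filled symbols passed an adjusted p under 0.05. Timp1, Mmp3 and Adamts1 lie to the right with both, and Timp2 moves from −0.76 to −0.35.

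**Figure D4:**
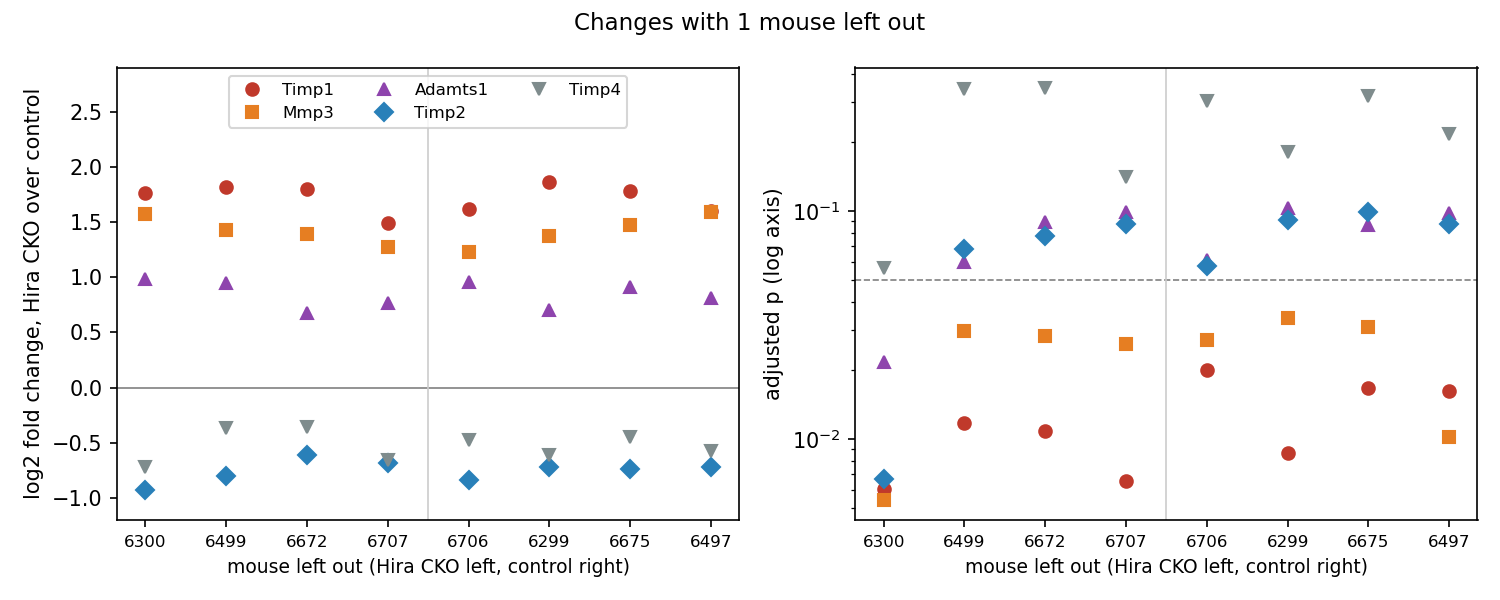
Log2 fold change (left) and adjusted p (right, log axis) of 5 genes with 1 mouse left out of the fit, the Hira CKO mice to the left of the grey line and the control mice to its right. The dashed line is an adjusted p of 0.05. Timp1 and Mmp3 stay below it for all 8 mice, Adamts1 and Timp2 only without CKO_6300, and Timp4 for none.

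Of the TIMP genes, 3 lie inside synapsin genes. By the RefSeq table Timp1 lies within Syn1 on chromosome X, Timp3 within Syn3 on chromosome 10 and Timp4 within Syn2 on chromosome 6, and the windows place Timp1 and Timp4 on the strand opposite to their host. None of the 3 synapsin genes had a probe with a current name here, and no source used here gives the strand that the TIMP probes read. The nearest measured genes beside Timp1, Araf and Cfp, were not called, with log2 fold changes of −0.37 (adjusted p = 0.113) and −0.08 (adjusted p = 0.832).

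The other proteases and inhibitors were counted from lists. Over all genes 4.94% were called higher and 9.65% lower, and 7.05% and 5.48% after quantile normalization. No count of a list, here or in the next paragraphs, was tested against these shares. Of 16 other matrix metalloproteinases measured 0 were called higher and 1 lower, and their median log2 fold change was −0.24, or −0.02 after quantile normalization, where 0 were called. The gene called was Mmp28, with an intensity of 52.5 ± 6.32 in Hira CKO and 73.3 ± 10.1 in control mice (SD, n = 4 each, log2 fold change −0.48, adjusted p = 0.0305), and after quantile normalization its log2 fold change was 0.02 (adjusted p = 0.936). Of 23 other ADAMTS and ADAMTS-like genes 1 was called higher and 3 lower, with a median of −0.16, or 0.03 after quantile normalization. Adamts19 was higher, at 2784 ± 182 in Hira CKO and 1522 ± 66.3 in control mice (log2 fold change 0.87, SE 0.09, adjusted p = 0.000882). Adamtsl4, Adamts7 and Adamtsl3 were lower, with log2 fold changes of −0.88, −0.62 and −0.46 (adjusted p = 0.0213, 0.0373 and 0.0444). Adamts7 cleaves the cartilage oligomeric matrix protein, and the ADAMTS-like proteins have no protease domain.

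Of 11 ADAM genes, most of which encode enzymes that shed proteins from the cell surface, 2 were called higher and 1 lower, with a median of −0.01, and 3 and 1 after quantile normalization, with a median of 0.06. Adam19, a sheddase of neuregulin that is needed for heart development in the mouse, was higher, at 6054 ± 2049 in Hira CKO and 1858 ± 635 in control mice (log2 fold change 1.71, SE 0.28, adjusted p = 0.00745). Adam8, best known from leukocytes, was higher at 1352 ± 382 in Hira CKO and 705.3 ± 145 in control mice (log2 fold change 0.90, adjusted p = 0.0362). Adam22, which lacks catalytic activity, was lower (log2 fold change −0.42, adjusted p = 0.0413). Of 9 genes of the plasminogen system, whose protease plasmin can activate metalloproteinase precursors, 0 were called higher and 2 lower, with a median of −0.29, or −0.05 after quantile normalization, where 1 was called lower. Plau, the urokinase activator of plasminogen, was at 873.1 ± 92.3 in Hira CKO and 1079 ± 54.9 in control mice (log2 fold change −0.40, adjusted p = 0.0441). Plg, plasminogen itself, was at 115.2 ± 12.2 in Hira CKO and 151.4 ± 10.3 in control mice (adjusted p = 0.0296, and 0.0879 after quantile normalization).

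Of 15 other activators, inhibitors and clearance genes 3 were called higher and 1 lower, with a median of 0.06, or 0.08 after quantile normalization, where 4 were called higher and 1 lower. Lcn2, which encodes lipocalin, known in humans to bind and protect Mmp9, was at 4860 ± 2590 in Hira CKO and 1121 ± 252 in control mice (log2 fold change 1.98, SE 0.36, adjusted p = 0.0120). Bsg, basigin, an inducer of metalloproteinases, was higher by 0.47 and Thbs1, thrombospondin, by 0.76 on the log2 scale (adjusted p = 0.0243 and 0.0435). Cst3, cystatin C, an inhibitor of cysteine cathepsins, was lower at 1933.5 ± 208.5 in Hira CKO and 3264 ± 99.3 in control mice (log2 fold change −0.76, SE 0.10, adjusted p = 0.00250). Of 6 cysteine cathepsins 2 were called, both higher, with a median of 0.24, or 0.28 after quantile normalization. Ctsk, cathepsin K, a collagen-degrading enzyme, was at 5274 ± 920 in Hira CKO and 1397 ± 137 in control mice (log2 fold change 1.90, SE 0.13, adjusted p = 0.000147), and Ctsl, cathepsin L, was higher by 0.67 (adjusted p = 0.00504). Of 9 AP-1 subunit genes 0 were called in either direction, with a median of −0.15, or −0.08 after quantile normalization. The nearest were Fosl1, with a log2 fold change of 0.28 (adjusted p = 0.0726, and 0.0350 after quantile normalization), and Fosb, with −1.13 (SE 0.65, adjusted p = 0.237). Fosb was at 1993.5 in control_6675 and 1342 in control_6497, but 284.4 in control_6706 and 267.5 in control_6299. The Hira CKO mice, at 224.2 to 496.8, were thus near the lower control mice.

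**Figure D5:**
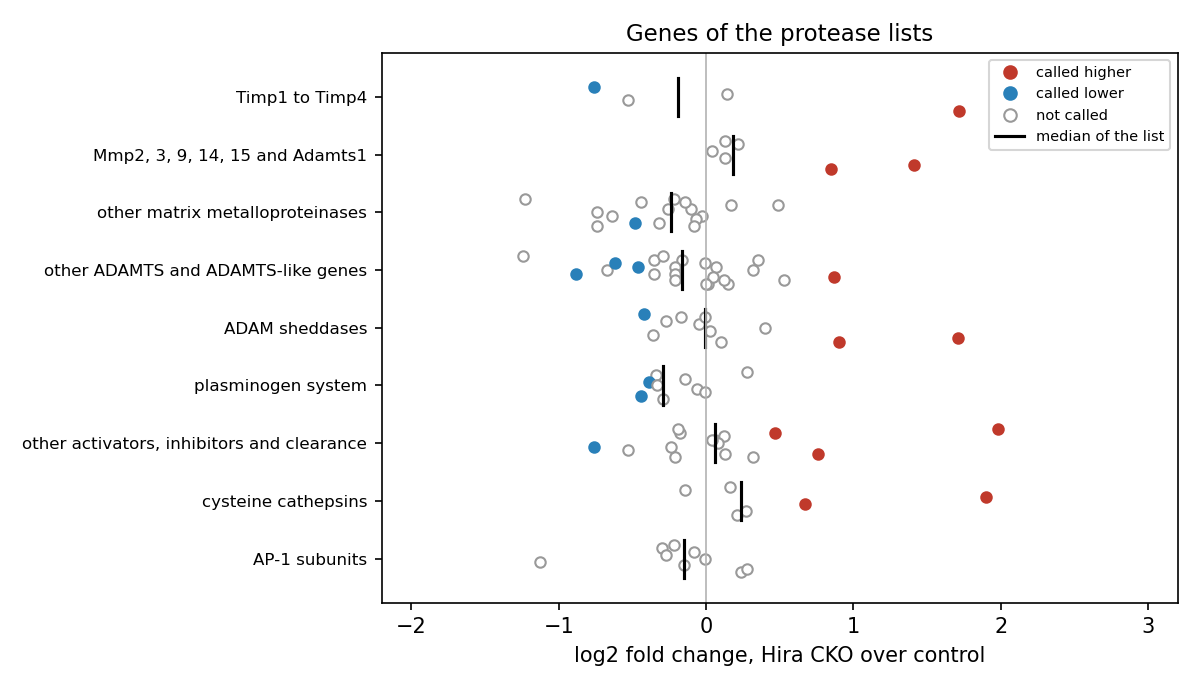
Log2 fold change, Hira CKO over control, of each gene of the protease and AP-1 lists, with filled symbols for genes called higher (red) or lower (blue), open symbols for genes not called, and a black bar for the median of each list. The farthest calls to the right are Lcn2, Ctsk, Timp1 and Adam19.

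Markers of the cells that can make these proteins were read from the same arrays, where 4.94% of all genes were called higher and 9.65% lower. Of 9 fibroblast markers 0 were called, with a summed intensity of 245850 to 296277 in Hira CKO and 255479 to 274590 in control mice. Most of each sum was Dcn, at 187746 to 224693 in Hira CKO and 192022 to 216009 in control mice, so the sums say little about the other markers. The median log2 fold change of the 9 was 0.13, or 0.17 after quantile normalization, and their signs were mixed. Col1a2 and Postn had log2 fold changes of 0.51 and 0.49 without a call (adjusted p = 0.106 and 0.0918), Col1a1 had −0.52 (adjusted p = 0.107), and Dcn, Lum and Pdgfra had 0.01, −0.05 and −0.04. Of 9 macrophage markers 1 was called, Cd68, at 2729 ± 472 in Hira CKO and 1681 ± 275 in control mice (log2 fold change 0.70, adjusted p = 0.0272), and the sums overlapped, 53815.5 to 92200.4 in Hira CKO and 65148 to 101574.5 in control mice. The 8 others had log2 fold changes of −0.38 (Adgre1) to 0.09 (Ptprc) without a call. For Adgre1 and Itgam control_6497 stood far above the other mice. Adgre1 was at 10533 in control_6497, 2027 to 2902 in the other control mice and 2074 to 3466 in Hira CKO. Itgam was at 2150 in control_6497, 587.2 to 673.6 in the other control mice and 754.8 to 936.9 in Hira CKO. The median of the 9 was −0.17, or −0.12 after quantile normalization. None of the fibroblast and macrophage markers was under 100 in every mouse.

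Of 7 neutrophil markers, with a median log2 fold change of −0.15, or 0.02 after quantile normalization, 1 was called higher and 2 lower, with sums of 2774 to 4441 in Hira CKO and 2649 to 3133 in control mice. S100a8 was higher, at 270.4 ± 78.1 in Hira CKO and 60.1 ± 11.3 in control mice (log2 fold change 2.39, SE 0.28, adjusted p = 0.00182, and 7.57e-05 after quantile normalization). Its probe was dim in control mice, at 45.6 to 72.8 by mouse, and the arrays of a mouse spread by an SD of 0.96 in log2, so the size of this fold change is uncertain. Elane and Ngp, which encode granule proteins, were called lower from means under 100 (adjusted p = 0.0138 and 0.0391), and after quantile normalization neither was called (0.193 and 0.189). Of 7 smooth muscle and pericyte markers 1 was called, Acta2, higher by 0.87 on the log2 scale (adjusted p = 0.0166), with sums of 203955 to 271186 in Hira CKO and 157262 to 201442 in control mice. The other 6 had log2 fold changes of −0.48 (Tagln) to −0.19 (Pdgfrb) without a call, the lowest adjusted p among them being 0.0505 (Kcnj8), and the median of the 7 was −0.30, or −0.24 after quantile normalization. Without Acta2 the sums were 59933 to 76436 in Hira CKO and 74023 to 90377 in control mice, so the higher sum in Hira CKO came from Acta2. The paper reports smooth-muscle α-actin protein, the product of Acta2, in cardiomyocytes of Hira CKO hearts, so Acta2 does not mark smooth muscle alone here. Of 6 epicardial and mesothelial markers 2 were called lower, Upk3b and Upk1b (log2 fold change −1.02 and −0.63, adjusted p = 0.0112 and 0.0402), with sums of 6195 to 7901 in Hira CKO and 9560 to 11393 in control mice and a median of −0.44, or −0.43 after quantile normalization. Krt8, another of the 6, was at 131.0 in CKO_6300, 157.3 in CKO_6499, 124.2 in CKO_6672 and −8.72 in CKO_6707, against 8.98 in control_6706, 26.0 in control_6299, −1.23 in control_6675 and 24.5 in control_6497. Its log2 fold change was −0.12 with SE 1.03 (adjusted p = 0.947), but 1.59 after quantile normalization (adjusted p = 0.0295), so its direction was not settled. Of the Hira CKO mice only CKO_6707 lay below the control mice, and values under 1 were set to 1 before log2. The parts of this floor and of the scaling were not tested. None of 8 endothelial and 4 T lymphocyte markers was called, with endothelial sums of 114312.5 to 133562 in Hira CKO and 132384 to 148228.5 in control mice and T lymphocyte sums of 3003 to 3106 in Hira CKO and 2486 to 2864 in control mice. The part of any of these cells in the rise of Timp1, Mmp3 and Adamts1 was not tested.

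Over the 8 mice, the genes whose log2 values followed each called gene most closely were named among 10253 genes with a mean intensity of at least 500. They were Mblac2, Myrfl and Selenom for Timp1 (Pearson r of 0.981, 0.980 and 0.978), Ppp1cc, Gusb and Pctp for Mmp3 (0.994, 0.990 and 0.988) and Pgp, Pigp and Ntng1 for Adamts1 (0.975, 0.971 and 0.967). Those for Timp2 were Shf, Cel and Tgfb1 (0.979, 0.953 and 0.951). The points share the difference between the groups, and with 8 mice and so many genes high values of r are met by searching, so they are given as a description.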

How the data were processed

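RNA of the left ventricular free wall of 4 Hira CKO and 4 control mice was hybridized to 3 single-colour arrays per mouse. The deposited table holds, for all arrays, the probe intensity on a linear scale, which the authors had scaled to a common median. Some values lay below 0, so a background had been taken off. The way this was done is not stated in the paper or the labels, and no detection flags were used. Anything under 1 was set to 1 before log2, and a mouse was the mean of its 3 arrays. Of 26423 probes, 20377 had 1 gene symbol, updated from the RefSeq table of GRCm38.p6, and a gene with several probes was read from the brightest. Groups were compared with limma 3.58.1 in R 4.3.3 (lmFit, eBayes, no covariate) over 17742 genes, and the fit was tested on simulated data. The 10 genes and the lists were chosen with earlier results of these data known. By rule, each of the 10 was named, and of each list up to 4 called genes of smallest p. A protease, inhibitor or AP-1 list without a call gave its 2 genes of smallest p, and a marker list without a call gave none. Genes beside the 10 on their chromosomes and markers named without a call were named after their values were seen. Alternatives were 2 further normalizations (quantile, cyclic loess), an offset of 50, a filter on intensity, other probe choices, priors, blocks and thresholds, the methods' test on mice, and mice or arrays left out. Promoter windows were searched in Python 3.11.15.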

Additional observations from a re-analysis of the deposited data

How the results depend on the processing

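The number of the 10 genes called lower, 1 as deposited, was 0 with cyclic loess normalization, with genes under an intensity of 100 left out, with the methods' t-test on mice, at an adjusted p of 0.01, at the methods' thresholds (a log2 change of 1 or more in size with an unadjusted p under 0.05), and without array 3 of CKO_6672 and array 1 of control_6299, a choice made after seeing the data. The number called higher was 1 at an adjusted p of 0.01, namely Timp1. With 1 mouse or 1 array number left out, 2 to 3 were called higher and 0 to 1 lower. Over all genes 876 were called higher and 1712 lower. Leaving out 1 mouse or array number gave 434 (without control_6675) to 916 (without CKO_6300) higher and 503 to 3568 lower, at the extremes without the same mice. The number called lower was 973 with quantile and 866 with cyclic loess normalization, 985 with the methods' t-test and 1118 without the 2 arrays. The number called higher was 1454 with the mouse as a random block and 1415 with the array number as a replicate block besides. An adjusted p of 0.10 gave 1422 higher and 3718 lower, an adjusted p of 0.01 gave 283 and 260, and the methods' thresholds 181 and 687. Arrays of the same number did not as a whole deviate together from their mouse means (median r −0.0426 over 84 pairs, −0.831 to 0.652). Arrays of different numbers had a median r of 0.0292 over 168 pairs. The number thus showed no common pairing, and batches shared by only some arrays were not tested. With the replicate block Timp4 was called (adjusted p = 0.0429) and Timp2 was not (0.0933). That fit too takes 1 correlation between the arrays of a mouse for all genes, so the Timp4 call has the limit given above. The log2 fold change changed sign for Timp3 without control_6497 (−0.02, with 0.23 the highest value with a mouse left out) and for Mmp15 without CKO_6300 (−0.03, with 0.10 the highest), and for Mmp28 with quantile (0.02) and cyclic loess (0.03) normalization. Adamts1 had an adjusted p of 0.103 with the methods' t-test and 0.0520 without the 2 arrays, and Timp2 had 0.0889 and 0.0655. With neighbouring mouse numbers as a block in limma the adjusted p was 0.0219 for Timp1, 0.0309 for Mmp3, 0.0158 for Adamts1 and 0.0352 for Timp2. Departures of neighbouring mice from their group means had a median r of 0.137 over 4 pairs. Among the genes named from the lists by rule, 426 values over all settings kept their side of the threshold, 140 lost a call and 4 gained one. Where the cause of a change is not given by the setting itself, the cause was not tested. Intensities near the background, those of Timp2 and Mmp28 among them, limit what these arrays can show.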
